A study of Homo sapiens with 12 samples.

Results

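The human mitochondrial chromosome carries 37 genes, and all 37 were found among the 58735 genes of the deposited expression table by chromosome name alone. They are 13 mRNAs for subunits of the respiratory chain, 2 rRNAs of the mitochondrial ribosome and 22 tRNAs. By the annotated orientation, 28 are read in the direction of the heavy strand promoters and 9 in that of the light strand promoter, called heavy strand and light strand genes below. All 37 passed the minimum mean level of 0.5 FPKM (fragments per kilobase of gene, scaled to library depth) over the 12 libraries and entered the fit of 15856 genes.

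Mitochondrial DNA is transcribed from both strands into long RNAs that span many genes. In most places a tRNA stands between neighbouring mRNAs or rRNAs, and its excision at both ends releases the RNAs on either side, so genes of one long transcript can still differ in level through processing and decay. Most of the mRNAs are tailed and kept stable by nuclear-encoded proteins, and the mitochondrial rRNAs, mRNAs and tRNAs serve only the making of the 13 proteins encoded there.

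RNA from cultured human neuroblastoma cells, tumour cells of the sympathetic nervous system, was sequenced in 4 groups of 3 libraries. The groups were SK-N-SH cells labelled TSPYL5 knockdown (shL5 in the titles), SK-N-SH cells labelled WT (shNC in the titles), a second line labelled TSPYL5 knockdown and the second line labelled WT. The titles call the second line SK_N_BE2 and the other labels call it SH-SY5Y, and no label says whether a knockdown line is 1 clone. The genotype labels name no other alteration, and the treatment label is None for all 12. Groups are called knockdown and control below, after these labels. The labels do not say whether the 3 libraries of a group were separate cultures, so p-values measure only the spread between libraries, which may be technical. Whole reads recovered from the table came to 15425460 to 19249018 per library, of which 1106809 to 1400862 fell on the mitochondrial chromosome.

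The labels do not match the contents of all libraries, and every mitochondrial result below is tied to this. TSPYL5, the target of the hairpin, had 17.1, 18.3 and 17.8 FPKM in SK-N-SH knockdown libraries, against 13.1, 13.4 and 12.2 FPKM in SK-N-SH control libraries, and was thus higher under the knockdown label. Second line knockdown libraries had 13.3, 12.4 and 12.6 FPKM of it, against 24.0, 24.4 and 25.8 FPKM in second line control libraries. MYCN, an oncogene amplified in some neuroblastoma lines, averaged 1028 FPKM in SK-N-SH knockdown and 0.0408 FPKM in SK-N-SH control, while all 3 second line knockdown libraries had 0 reads of it and second line control averaged 1040.4 FPKM. The summed level of 6 noradrenergic marker genes was 804 to 881 FPKM in SK-N-SH knockdown and 63.9 to 76.6 FPKM in SK-N-SH control, and 57.3 to 72.4 FPKM in second line knockdown against 959 to 982 FPKM in second line control. The summed level of 6 mesenchymal marker genes ran the other way, at 19.4 to 22.6 FPKM in SK-N-SH knockdown against 1329 to 1659 FPKM in SK-N-SH control, and 1166 to 1574 FPKM in second line knockdown against 17.9 to 21.5 FPKM in second line control. TH, the noradrenergic marker tyrosine hydroxylase, was at 0 in SK-N-SH control and second line knockdown. Markers of blood, endothelium, epithelium and Schwann cells (PTPRC, PECAM1, EPCAM and SOX10) summed to 2.06 FPKM or less in every library. Knockdown against control within a labelled line therefore also sets cells rich in noradrenergic markers against cells rich in mesenchymal markers, and the part of either in the values below cannot be told apart. The 2 remaining pairings, SK-N-SH knockdown with second line control and second line knockdown with SK-N-SH control, are given as well.

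Mitochondrial genes took 7.08%, 7.46% and 8.23% of the reads in SK-N-SH knockdown libraries, against 6.25%, 6.64% and 6.51% in SK-N-SH control libraries. These groups did not overlap, and the difference of the means was 1.12 percentage points (exact permutation test, two-sided, p = 0.1, adjusted 0.1 over 5 ratios), which is the smallest p that 3 against 3 libraries allow. In the second line the shares were 6.73%, 7.45% and 7.28% in knockdown and 7.76%, 7.26% and 7.18% in control, and the groups overlapped (exact p = 0.6, adjusted 0.6). The 95% Wilson interval of the highest share ran from 8.22% to 8.24%, and intervals of this kind cover counting error only. In bulk RNA, fewer mitochondria, fewer cells of a kind and less RNA in each cannot be told apart. MT-CO1, the catalytic core subunit of complex IV, alone held 25.2% to 28.2% of the mitochondrial reads and ranked first of the 13 mRNAs by mean FPKM in all 4 groups, with MT-ATP8, a small subunit of ATP synthase, last. MT-CO3 ranked 2 of 13 in SK-N-SH knockdown and 7 of 13 in SK-N-SH control, while MT-ND3 ranked 7 and 2.

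**Figure D1:**
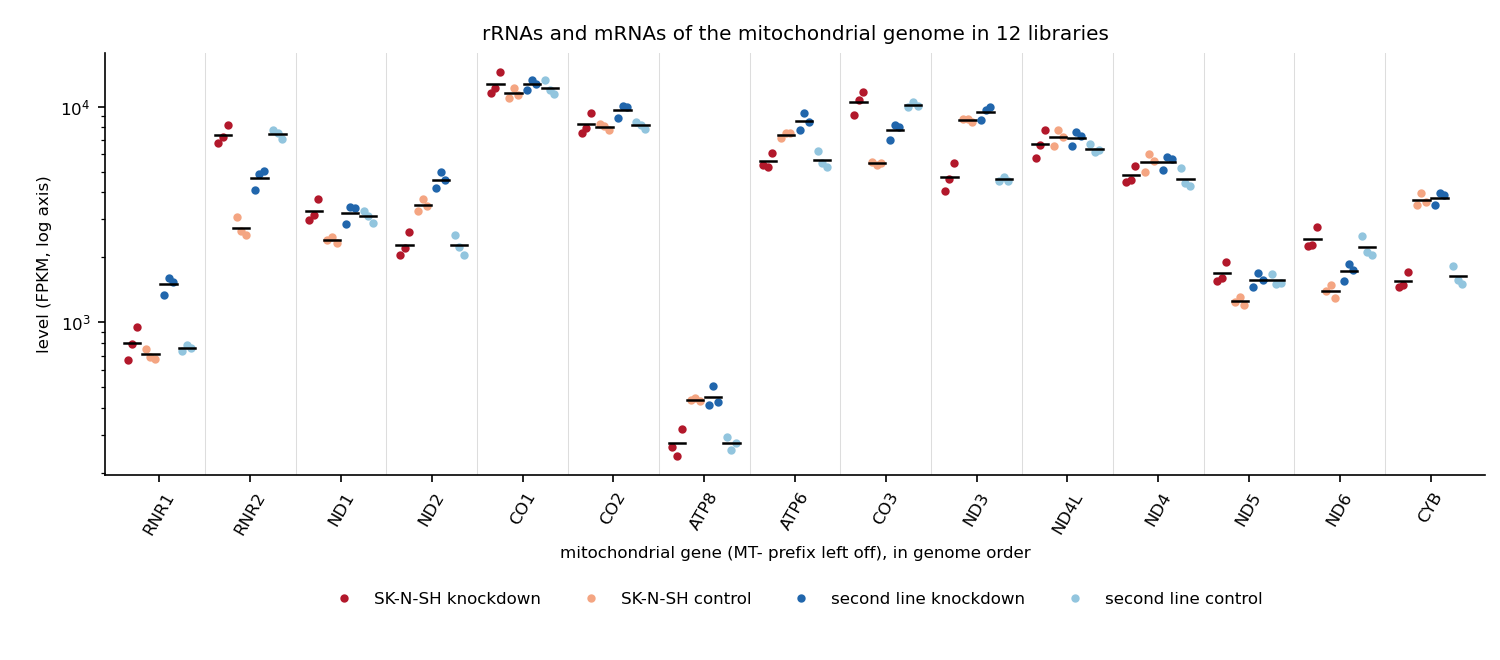
Levels of the 2 rRNAs and 13 mRNAs in genome order (FPKM, log axis). Points are single libraries and black bars are means of the 3 libraries of a group, with colours for the groups by label. MT-CYB lies at 1458 to 1715 FPKM in SK-N-SH knockdown and 3492 to 3968 FPKM in SK-N-SH control, with the reverse order in the second line.

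In SK-N-SH, the knockdown libraries held more of the large ribosomal RNA MT-RNR2, of MT-CO3 and of the light strand mRNA MT-ND6, and less of MT-CYB, MT-ND3, MT-ATP8, MT-ND2 and MT-ATP6. MT-CO1, MT-CO2, MT-ND4 and MT-ND4L did not pass the test. Of the 37 genes, 16 were higher and 9 lower in knockdown (limma with Benjamini-Hochberg adjustment over all genes tested, adjusted p under 0.05). That is 67.6% of the mitochondrial genes called, where 79.8% of all genes tested were called in this comparison (40.7% higher and 39.0% lower), so a call as such is no mark of a mitochondrial gene here. The median log2 fold was 0.17 over the 37 genes and 0.02 over all genes tested. Rescaled to the summed FPKM of the mitochondrial genes, 16 were higher and 15 lower, where 76.2% of all genes tested were called, 5281 higher and 6799 lower.

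The rRNAs did not move together. MT-RNR2, the 16S RNA of the large ribosomal subunit, had 6777, 7224 and 8231 FPKM in SK-N-SH knockdown libraries, against 3072, 2648 and 2531 FPKM in SK-N-SH control libraries. Every knockdown library lay above every control library, and the log2 fold was 1.43 (SE 0.12, limma adjusted p = 4.31e-07). MT-RNR1, the 12S RNA of the small subunit, which lies just upstream with MT-TV between them, had 673, 794 and 949 FPKM in knockdown and 756, 695 and 679 FPKM in control, and these overlapped (log2 fold 0.17, limma adjusted p = 0.2).

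Among the complex IV mRNAs, which encode the 3 core subunits of cytochrome c oxidase, MT-CO3 alone passed the test. MT-CO3 had 9169, 10703 and 11726 FPKM in SK-N-SH knockdown libraries and 5555, 5349 and 5471 FPKM in SK-N-SH control libraries. The groups stood apart by a log2 fold of 0.94 (SE 0.12, limma adjusted p = 1.25e-05). MT-CO1 averaged 12764 ± 1502 FPKM in knockdown and 11499 ± 596 FPKM in control (SD, n = 3 each), with a log2 fold of 0.15, and MT-CO2, the subunit that receives electrons from cytochrome c, averaged 8278 ± 953 and 8076 ± 254 FPKM, with a log2 fold of 0.03.

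MT-CYB, the cytochrome b of complex III and the only subunit of that complex encoded in the mitochondria, fell furthest of the mRNAs. It had 1458, 1489.5 and 1715 FPKM in SK-N-SH knockdown libraries, against 3492, 3968 and 3613 FPKM in SK-N-SH control libraries, a log2 fold of -1.25 (SE 0.10, limma adjusted p = 3.78e-07). The highest knockdown library thus lay far below the lowest control library.

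The 7 complex I mRNAs, which encode core subunits of NADH dehydrogenase, split. MT-ND3 had 4047, 4595 and 5487 FPKM in SK-N-SH knockdown libraries and 8734, 8732 and 8459.9 FPKM in SK-N-SH control libraries (log2 fold -0.89, SE 0.12, limma adjusted p = 2.57e-05). MT-ND2 fell to 2294 ± 292 FPKM in knockdown, against 3493 ± 229 FPKM in control (log2 fold -0.61, limma adjusted p = 0.000501). MT-ND1 and MT-ND5 were higher in knockdown, with log2 folds of 0.43 and 0.42 (limma adjusted p = 0.00296 and 0.00143). MT-ND6, the only mRNA among the light strand genes, rose further than either. It had 2249, 2277 and 2763 FPKM in knockdown libraries and 1396, 1497 and 1302 FPKM in control libraries (log2 fold 0.79, SE 0.11, limma adjusted p = 5.14e-05). MT-ND4 and MT-ND4L, which overlap and are read from a shared mRNA, had log2 folds of -0.21 and -0.10 and were not called.

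The pair of complex V mRNAs also share a transcript, and both were lower in SK-N-SH knockdown. MT-ATP8 had 263, 240.5 and 321 FPKM in knockdown libraries and 436, 447 and 431 FPKM in control libraries (log2 fold -0.68, limma adjusted p = 0.000101). MT-ATP6, which encodes the proton channel subunit of ATP synthase, averaged 5574 ± 473 FPKM in knockdown and 7409.6 ± 219 FPKM in control (SD, n = 3 each, log2 fold -0.41, limma adjusted p = 0.00543). With no minimum level set on the genes fitted, MT-CO3, MT-ND3, MT-ND1 and MT-ATP6 kept their direction and lost the call (limma adjusted p = 0.0858 to 0.440 in this comparison). MT-ATP6 also lost it with a pseudocount of 0.01 (limma adjusted p = 0.0877).

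**Figure D2:**
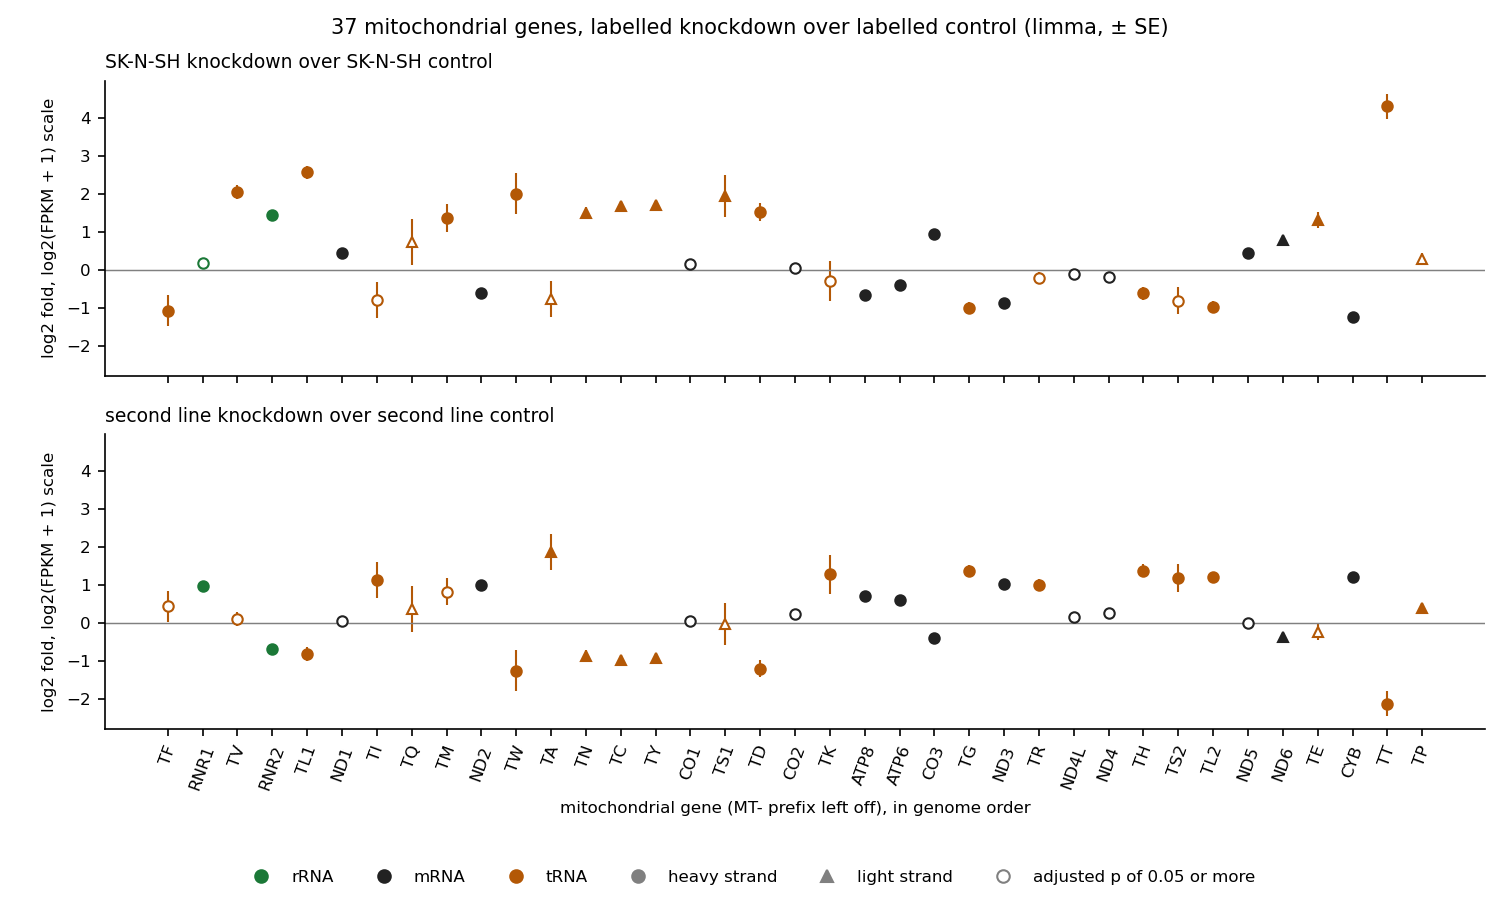
Log2 fold of knockdown over control for the 37 mitochondrial genes in genome order, SK-N-SH above and the second line below, on the scale of log2(FPKM + 1). Points are limma estimates from 3 against 3 libraries, bars are ± SE, and filled symbols passed an adjusted p of 0.05. MT-CYB is at -1.25 in SK-N-SH and 1.21 in the second line, and MT-TT is at 4.30 and -2.12.

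In the second line, the knockdown libraries held more MT-CYB, MT-ND3, MT-ND2, MT-ATP8, MT-ATP6 and MT-RNR1 and less MT-RNR2, MT-CO3 and MT-ND6. Of the 37 genes, 15 were higher and 10 lower in knockdown (67.6% called), where 80.0% of all genes tested were called, 39.9% higher and 40.2% lower. The median log2 fold was 0.27 over the 37 genes and -0.02 over all genes tested.

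MT-CYB had 3483, 3978 and 3902 FPKM in second line knockdown libraries, against 1820.3, 1572 and 1511 FPKM in second line control libraries (log2 fold 1.21, SE 0.10, limma adjusted p = 4.72e-07). MT-ND3 had 8633, 9673 and 9921 FPKM in knockdown and 4520.0, 4735 and 4539.5 FPKM in control (log2 fold 1.03, limma adjusted p = 6.87e-06). For both mRNAs, all knockdown libraries lay above all control libraries. MT-ND2 averaged 4565 ± 393 FPKM in knockdown and 2277 ± 238 FPKM in control (log2 fold 1.005, limma adjusted p = 8.42e-06). The complex V pair had log2 folds of 0.70 for MT-ATP8 and 0.60 for MT-ATP6, both past the test (limma adjusted p = 7.67e-05 and 0.000441).

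The rRNAs went opposite ways. MT-RNR1 had 1342, 1611 and 1546 FPKM in second line knockdown libraries and 734, 786 and 762 FPKM in second line control libraries (log2 fold 0.98, SE 0.12, limma adjusted p = 9.13e-06). MT-RNR2 had 4099.9, 4874 and 5015 FPKM in knockdown and 7819, 7503 and 7093 FPKM in control (log2 fold -0.68, SE 0.12, limma adjusted p = 0.00024). Neither gene's groups overlapped, so the small subunit RNA was higher and the large subunit RNA lower in the same knockdown libraries.

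MT-CO3 averaged 7754 ± 629 FPKM in second line knockdown and 10157 ± 334 FPKM in second line control (log2 fold -0.39, limma adjusted p = 0.00824), and MT-ND6 averaged 1724 ± 160.3 and 2232 ± 244 FPKM (log2 fold -0.37, limma adjusted p = 0.0108). MT-CO1, MT-CO2, MT-ND1, MT-ND4, MT-ND4L and MT-ND5 did not pass, with log2 folds of 0.01 to 0.27 that turned negative for MT-CO1, MT-ND1 and MT-ND5 under other scalings. Of these, MT-ND5 was called lower by voom on recovered reads (log2 fold -0.16, adjusted p = 0.0328). With no minimum level set, MT-CO3, MT-ATP6, MT-RNR2 and MT-ND6 lost the call (limma adjusted p = 0.114 to 0.539), and MT-ND6 also lost it without control replicate 1 (limma adjusted p = 0.0518). MT-CO3 lost it too with a pseudocount of 0.01 (limma adjusted p = 0.137).

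The difference between the lines' knockdown effects, second line minus SK-N-SH, passed the test in 30 of the 37 genes, 15 with a positive and 15 with a negative sign (81.1%), where 84.9% of all genes tested passed, 41.8% positive and 43.1% negative. MT-CYB, MT-ND3, MT-ND2, MT-ATP8 and MT-ATP6 were lower in knockdown in SK-N-SH and higher in knockdown in the second line, with differences of 2.46, 1.92, 1.62, 1.38 and 1.01 in log2. MT-RNR2, MT-CO3 and MT-ND6 had the opposite pattern, with differences of -2.11, -1.33 and -1.16. With no minimum level set, the difference lost its call for MT-ATP6, MT-CO3 and MT-ND5 (limma adjusted p = 0.157, 0.114 and 0.113). MT-CO1, MT-CO2 and MT-ND4L were the mRNAs in which no difference between the lines was called (log2 differences of -0.09, 0.20 and 0.27, limma adjusted p = 0.650, 0.264 and 0.169).

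The tRNA genes gave the largest folds, from far fewer reads. The tRNAs are 59 to 75 bases long, the library protocol was not one for small RNA, and 22 of them together took 0.427% to 1.17% of the mitochondrial reads. Of these reads, MT-TC, MT-TN, MT-TP and MT-TY, all light strand genes, and MT-TH, a heavy strand gene, held the most. Sequences of 8 tRNAs are shown because the results turn on them or because they flank a gene described above, with the anticodon in capitals. They are DNA letters of the gene in its own direction, 5′ to 3′, from the GENCODE 29 transcripts on GRCh38.
MT-TT: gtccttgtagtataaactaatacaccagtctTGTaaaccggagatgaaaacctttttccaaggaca
MT-TL1: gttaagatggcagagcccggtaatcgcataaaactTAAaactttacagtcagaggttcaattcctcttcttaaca
MT-TV: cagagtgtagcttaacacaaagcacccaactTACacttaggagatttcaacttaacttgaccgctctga
MT-TC: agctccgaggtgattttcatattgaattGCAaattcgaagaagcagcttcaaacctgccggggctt
MT-TN: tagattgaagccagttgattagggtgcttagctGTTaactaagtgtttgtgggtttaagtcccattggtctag
MT-TY: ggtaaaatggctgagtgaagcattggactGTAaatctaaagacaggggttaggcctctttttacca
MT-TP: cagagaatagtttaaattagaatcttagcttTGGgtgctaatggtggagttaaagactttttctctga
MT-TH: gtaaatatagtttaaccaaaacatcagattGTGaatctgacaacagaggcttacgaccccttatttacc

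In SK-N-SH, 11 of the 22 tRNA genes were higher and 4 lower in knockdown, with a median log2 fold of 1.02. That is 68.2% called, beside 79.8% of all genes tested (40.7% higher and 39.0% lower), whose median was 0.02. MT-TT, the threonine tRNA at 15888 to 15953 on the mitochondrial chromosome, directly after MT-CYB, had 79.2, 121 and 131 FPKM in SK-N-SH knockdown libraries, against 6.50, 2.40 and 5.67 FPKM in SK-N-SH control libraries. The groups lay far apart, the fold of the means was 22.7, and the log2 fold was 4.30 (SE 0.32, limma adjusted p = 1.42e-07). MT-TT was thus higher in the same libraries in which the adjacent MT-CYB was lower. MT-TL1, the leucine tRNA at 3230 to 3304 that follows MT-RNR2 with no base between, had 153, 139 and 172 FPKM in knockdown and 29.3, 19.7 and 27.8 FPKM in control (log2 fold 2.56, limma adjusted p = 7.25e-08). MT-TV, the valine tRNA at 1602 to 1670 between the rRNAs, averaged 18.5 ± 2.74 FPKM in knockdown and 3.87 ± 1.36 FPKM in control (SD, n = 3 each, log2 fold 2.04, limma adjusted p = 9.39e-07), on 3 to 29 reads per library across all groups.

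The light strand cluster of alanine, asparagine, cysteine and tyrosine tRNAs lies between MT-TW and MT-CO1. MT-TC at 5761 to 5826 had 5058, 5559.9 and 7094 FPKM in SK-N-SH knockdown libraries, against 1952, 1795 and 1703 FPKM in SK-N-SH control libraries (log2 fold 1.69, limma adjusted p = 2.22e-07). MT-TN at 5657 to 5729 averaged 3936 ± 781 FPKM in knockdown and 1386 ± 213 FPKM in control (log2 fold 1.499, limma adjusted p = 3.79e-06). MT-TY at 5826 to 5891 averaged 546 ± 10.6 and 169 ± 17.5 FPKM (log2 fold 1.69, limma adjusted p = 3.4e-08). These 3 neighbours were higher in every knockdown library than in any control library, while MT-TA, the fourth of the cluster, had at most 19 reads in a library and was not called. Of the 9 light strand genes, 6 were higher and 0 lower in SK-N-SH knockdown (median log2 fold 1.32), beside 10 higher and 9 lower of 28 heavy strand genes (median -0.16). These are 66.7% and 67.9% called, beside 79.8% of all genes tested (40.7% higher and 39.0% lower). In second line knockdown 2 light strand genes were higher and 4 lower (median -0.24), beside 13 higher and 6 lower heavy strand genes (median 0.52), where 80.0% of all genes tested were called (39.9% higher and 40.2% lower).

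Elsewhere, MT-TD, MT-TE, MT-TW, MT-TS1 and MT-TM were also higher in SK-N-SH knockdown, by log2 folds of 1.32 to 2.003. MT-TG, MT-TL2, MT-TH and MT-TF were lower, by log2 folds of -1.09 to -0.63. The 3 tRNAs between MT-ND4 and MT-ND5 had the same sign, with -0.63 for MT-TH, -0.82 for MT-TS2 (not called, limma adjusted p = 0.0541) and -0.97 for MT-TL2. MT-TF rested on 0 to 4 reads per library and lost its call with voom on recovered reads (adjusted p = 0.0687), with smaller pseudocounts, and without control replicate 1 (limma adjusted p = 0.0928), control replicate 2 (0.0611) or knockdown replicate 2 (0.117). MT-TP, the proline tRNA, averaged 630.5 ± 131 FPKM in knockdown and 509 ± 18.2 FPKM in control and was not called.

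**Figure D3:**
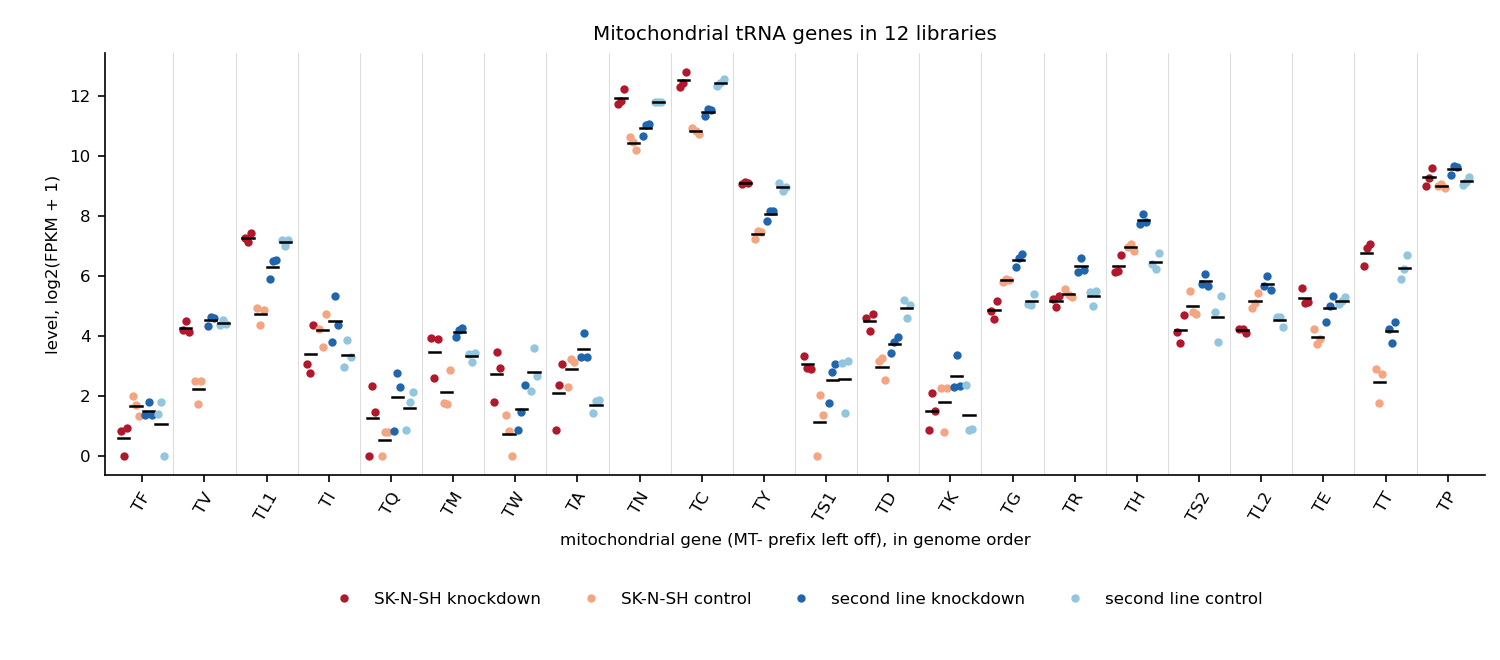
Levels of the 22 mitochondrial tRNA genes in genome order, as log2(FPKM + 1). Points are single libraries, black bars are means of 3 libraries, and colours give the groups by label. MT-TT, MT-TL1, MT-TN, MT-TC and MT-TY are high in SK-N-SH knockdown with second line control and low in SK-N-SH control, with second line knockdown between.

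In the second line, 9 tRNA genes were higher and 7 lower in knockdown, with a median log2 fold of 0.38, where 80.0% of all genes tested were called and their median was -0.02. MT-TT had 17.7, 12.6 and 21.1 FPKM in second line knockdown libraries and 58.5, 73.7 and 102 FPKM in second line control libraries (log2 fold -2.12, SE 0.32, limma adjusted p = 6.9e-05). MT-TC had 2543, 3006 and 2947 FPKM in knockdown and 5122, 5507 and 5981 FPKM in control (log2 fold -0.97, limma adjusted p = 2.96e-05). MT-TY and MT-TN were lower as well, with log2 folds of -0.92 and -0.87, as were MT-TD, MT-TL1 and MT-TW. The 3 tRNAs between MT-ND4 and MT-ND5 were all higher in knockdown. MT-TH had 209, 264 and 219.9 FPKM in knockdown libraries and 83.9, 73.8 and 108 FPKM in control libraries (log2 fold 1.38, limma adjusted p = 1.35e-05). MT-TS2 and MT-TL2 had log2 folds of 1.19 and 1.21, and MT-TG, MT-TR, MT-TA, MT-TP, MT-TI and MT-TK were higher by 0.39 to 1.87. The fold of 1.87 was that of MT-TA, on 1 to 19 reads per library across all groups. MT-TP, MT-TI, MT-TK and MT-TW, with limma adjusted p = 0.0199 to 0.0483, were the calls most easily lost. Without second line knockdown replicate 2 all 4 lost it (limma adjusted p = 0.0682, 0.192, 0.150 and 0.102), and so did MT-TP, MT-TI and MT-TK with voom (0.0587, 0.072 and 0.0712).

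Set beside each other across the labels, SK-N-SH knockdown libraries and second line control libraries differed in none of the mitochondrial genes by the test. Of the 37 genes, 0 were called (limma), 1 had an unadjusted p under 0.05 and voom on recovered reads called 0, where 5.39% of all genes tested were called, 2.26% higher and 3.12% lower. That gene was MT-TL2, at 17.6, 17.8 and 16.2 FPKM in SK-N-SH knockdown and 23.9, 23.9 and 18.7 FPKM in second line control (log2 fold -0.34, unadjusted p = 0.0399, limma adjusted p = 0.240). The log2 folds of the 13 mRNAs ran from -0.07 for MT-CYB to 0.12 for MT-ND6, and the rRNAs stood at 0.07 and -0.02. The largest folds were those of tRNAs, from -0.48 for MT-TF to 0.50 for MT-TT. Standard errors of the mRNA and rRNA folds were 0.09 to 0.13. A fold has to lie well above its standard error to pass, so differences larger than these could also go uncalled. An uncalled gene is therefore not shown to be equal between the groups.

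Second line knockdown libraries and SK-N-SH control libraries did differ in mitochondrial genes, in 1 direction. Of the 37 genes, 20 were higher in second line knockdown and 0 lower (54.1%), where 44.1% of all genes tested were called, 26.9% higher and 17.2% lower. The split over all genes turned with the scaling, from 4261 higher and 2735 lower to 3084 and 3661 by library totals, 3208 and 3595 by nuclear read totals and 3191 and 3968 by voom. Without a minimum level, 13 of the mitochondrial genes were higher, where 19.5% of all genes tested were called, 4207 higher and 2799 lower. Rescaled to the summed mitochondrial FPKM, 14 were higher and 4 lower, where 36.4% of all genes tested were called, 1316 higher and 4455 lower. MT-RNR1 averaged 1499.8 ± 140.3 FPKM in second line knockdown and 710.2 ± 40.8 FPKM in SK-N-SH control (log2 fold 1.07, limma adjusted p = 4.4e-05), and MT-RNR2 averaged 4663 ± 492 and 2750.2 ± 285 FPKM (log2 fold 0.76, limma adjusted p = 0.000478, and 0.145 without a minimum level, where the call was lost). Of the mRNAs, MT-CO3, MT-ND1, MT-ND2 and MT-ND5 passed with log2 folds of 0.33 to 0.50. With the 6 libraries of these groups fitted alone, the 4 mRNAs kept their sign and lost the call (limma adjusted p = 0.067 to 0.215). A pseudocount of 0.01 lost the calls of MT-CO3 and MT-ND2 (limma adjusted p = 0.102 and 0.0693). MT-ND2 also lost it without SK-N-SH control replicate 1 or 3 (0.0723 and 0.0622) or second line knockdown replicate 2 or 3 (0.0782 and 0.0578), and MT-ND5 without SK-N-SH control replicate 3 (0.0639) or second line knockdown replicate 2 (0.0637), all limma adjusted p. Among the tRNAs 14 were higher, from 0.49 for MT-TN to 2.29 for MT-TV, which had 19.3, 24.0 and 23.4 FPKM in second line knockdown, against 4.67, 2.30 and 4.65 FPKM in SK-N-SH control. With the 6 libraries alone, MT-TN, MT-TD and MT-TL2 lost the call (limma adjusted p = 0.0933, 0.0574 and 0.0513). MT-TN also lost it without SK-N-SH control replicate 2 or 3 (0.0538 and 0.120) or second line knockdown replicate 2 or 3 (0.0901 and 0.103), and MT-TD without SK-N-SH control replicate 3 (0.0740) or second line knockdown replicate 2 or 3 (0.0533 and 0.0705), all limma adjusted p. MT-CYB, MT-ND3, MT-ATP8, MT-ND4 and MT-ND4L had log2 folds of -0.01 to 0.12 and were not called. These 2 comparisons share their libraries with the within-line ones and are no independent support for them.

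**Figure D4:**
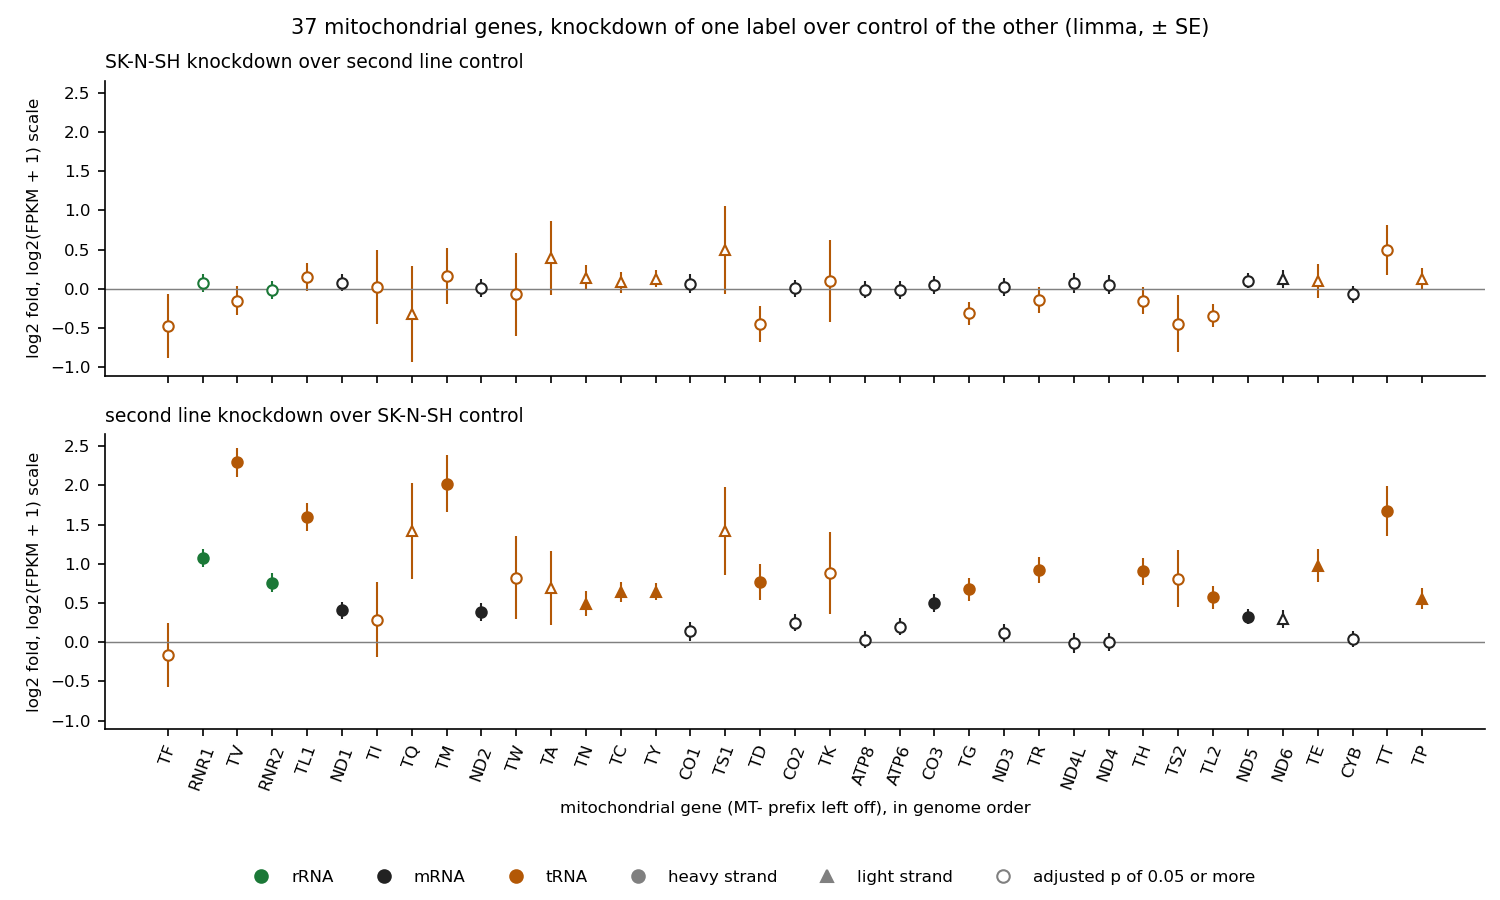
Log2 fold for the 37 mitochondrial genes in genome order, SK-N-SH knockdown over second line control above and second line knockdown over SK-N-SH control below, on the scale of log2(FPKM + 1). Points are limma estimates from 3 against 3 libraries, bars are ± SE, and filled symbols passed an adjusted p of 0.05. In the upper panel 0 genes passed, and in the lower panel 20 passed, all above 0.

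Ratios between mitochondrial genes do not depend on how libraries are scaled to each other. The 2 rRNAs made up 9.71 ± 0.159% of the summed mitochondrial FPKM in SK-N-SH knockdown and 4.67 ± 0.501% in SK-N-SH control, and 6.94 ± 0.231% in second line knockdown and 10.1 ± 0.143% in second line control (SD, n = 3 each). The tRNAs made up 13.6 ± 0.702% and 5.74 ± 0.481% in SK-N-SH knockdown and control, and 7.36 ± 0.304% and 13.1 ± 1.081% in second line knockdown and control. In each line the knockdown and control libraries did not overlap in either share (exact permutation test, two-sided, p = 0.1 each, the smallest that 3 against 3 allow, adjusted 0.1 in SK-N-SH and 0.125 in the second line). Most of the summed tRNA FPKM came from MT-TC and MT-TN in every group. FPKM is divided by gene length, which weights these short genes. Of the mitochondrial reads, tRNAs took 1.09% and 0.459% in SK-N-SH knockdown and control, and 0.588% and 1.04% in second line knockdown and control.

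The summed complex IV mRNAs stood at 1.22 ± 0.0169 times the complex I mRNAs in SK-N-SH knockdown and 0.837 ± 0.0277 times in SK-N-SH control. The ratio was 0.905 ± 0.00786 in second line knockdown and 1.24 ± 0.0343 in second line control. MT-ND6 stood at 0.0389 ± 0.00124 of the summed heavy strand mRNAs in SK-N-SH knockdown and 0.0215 ± 0.0011 in SK-N-SH control, and at 0.0232 ± 0.000523 and 0.0367 ± 0.00225 in second line knockdown and control. Neither ratio overlapped between knockdown and control in either line (exact permutation test, two-sided, p = 0.1 each).

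Within the heavy strand, MT-CYB against MT-CO3 gave a ratio of 0.148 in SK-N-SH knockdown and 0.677 in SK-N-SH control, and 0.489 in second line knockdown and 0.161 in second line control. MT-RNR2 stood at 9.28 times MT-RNR1 in SK-N-SH knockdown and 3.87 times in SK-N-SH control, and at 3.11 times in second line knockdown and 9.84 times in second line control. These ratios were formed after the levels were seen and are descriptions without a test.

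**Figure D5:**
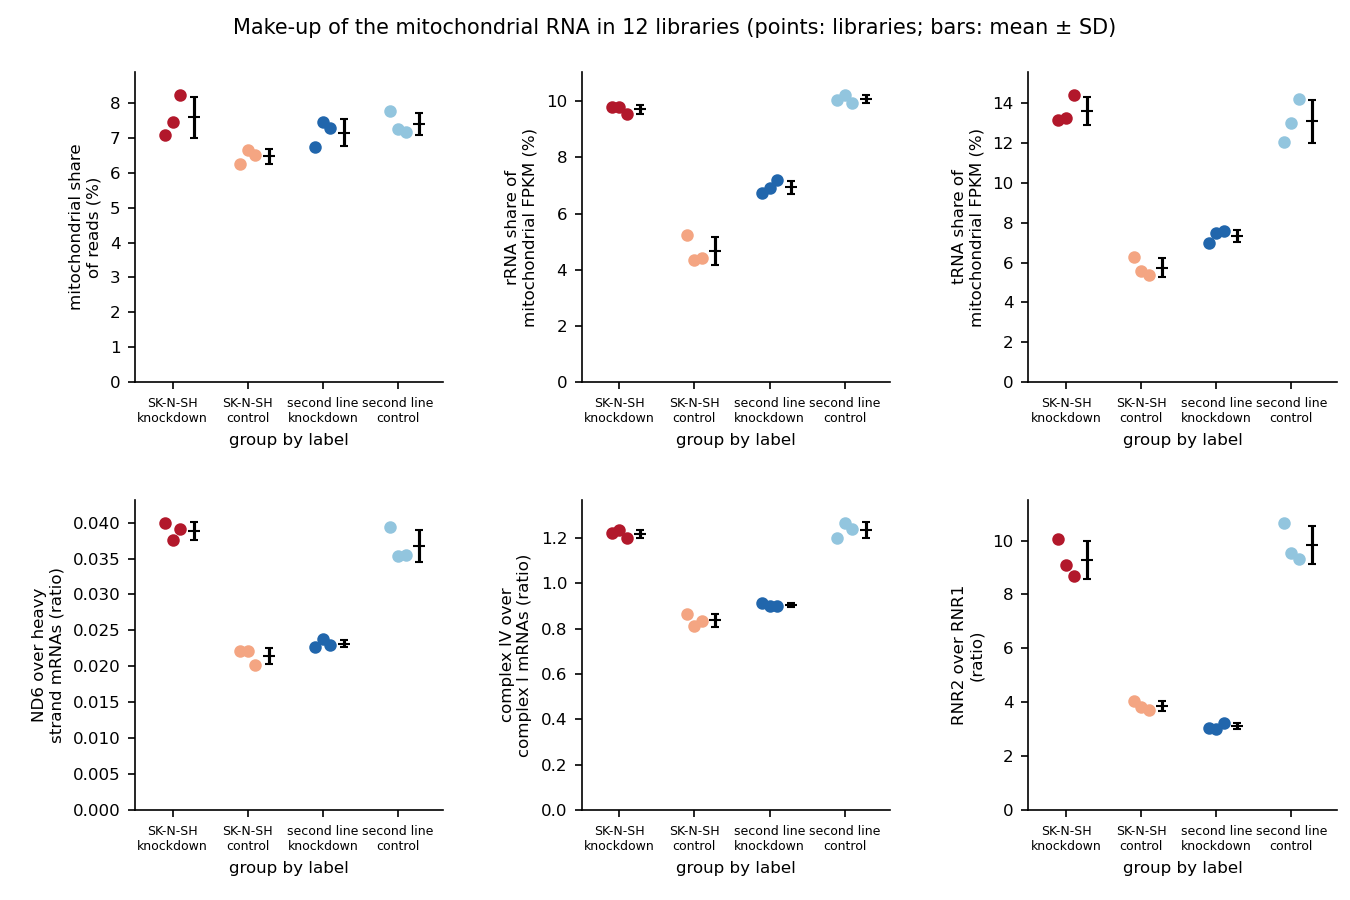
Make-up of the mitochondrial RNA by group, tested as described except for MT-RNR2 over MT-RNR1. The mitochondrial share is of reads, and the other values are of FPKM, which is divided by gene length. Points are the 3 libraries of a group, black bars are mean ± SD, and all axes start at 0. The rRNA share is 9.53% to 9.81% in SK-N-SH knockdown and 4.35% to 5.24% in SK-N-SH control, and MT-RNR2 over MT-RNR1 is 3.03 to 3.24 in second line knockdown and 9.31 to 10.7 in second line control.

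Neighbouring mitochondrial genes touch or overlap, which bears on how reads were assigned. MT-ATP8 and MT-ATP6 share 46 bases, from 8527 to 8572, and MT-ND4L and MT-ND4 share 7 bases, from 10760 to 10766. The windows around both overlaps are shown with the shared bases in capitals, in the heavy strand gene direction (GENCODE 29 transcripts, GRCh38).
MT-ATP8 and MT-ATP6: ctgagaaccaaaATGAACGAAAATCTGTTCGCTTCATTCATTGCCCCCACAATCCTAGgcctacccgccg
MT-ND4L and MT-ND4: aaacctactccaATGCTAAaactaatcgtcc
Each capital run opens with the start codon of the downstream reading frame, inside the upstream one. MT-ATP6 stood at 20.4 times MT-ATP8 in SK-N-SH knockdown and 16.9 times in SK-N-SH control, and at 19.0 times in second line knockdown and 20.53 times in second line control. MT-ND4 stood at 0.716 and 0.768 times MT-ND4L in SK-N-SH knockdown and control, and at 0.774 and 0.726 times in second line knockdown and control. Both ratios moved little beside those of MT-CYB to MT-CO3. The sources used here do not state how reads on overlapping genes were treated or whether counting used strand. Reads of antisense RNA cannot be told from those of the genes named, which touches MT-ND6 and the light strand tRNAs most.

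Nuclear copies of mitochondrial sequence share reads with the genes above. The table lists 407 copies by their symbols, and 94 had reads. MTND2P28 and MTATP6P1, on chromosome 1 at 629640 to 630683 and 633696 to 634376, and MTCO1P12 held 98.1% of the reads on copies. MTND2P28 had 6.64% as many reads as MT-ND2 and MTATP6P1 4.34% as many as MT-ATP6 over the 12 libraries. MTND2P28 had 2338 to 2548 reads in SK-N-SH knockdown and 3944 to 4876 in SK-N-SH control, and 5787 to 5874 in second line knockdown and 2464 to 3103 in second line control. MTATP6P1 had 2181 to 2750 reads in SK-N-SH knockdown and 4541 to 5257 in SK-N-SH control, and 4363 to 4505 in second line knockdown and 2132 to 2757 in second line control. MTCO1P12 had 624 to 778 and 811 to 992 reads in SK-N-SH knockdown and control, and 734 to 751 and 496 to 782 in second line knockdown and control. MTND2P28 reads were most numerous in second line knockdown, as was MT-ND2 in FPKM, and MTATP6P1 reads in SK-N-SH control. MTCO1P12 reads were fewer in SK-N-SH knockdown than in SK-N-SH control. These reads are not scaled to library depth, so they cannot be set directly against the FPKM of the parents. Depth was 15542671 to 16355217 reads in SK-N-SH knockdown libraries and 18014544 to 18909666 in SK-N-SH control libraries. With the reads of copies added to their parents, the counts of genes called were the same in every comparison, and MT-ND2 had log2 folds of -0.62 in SK-N-SH and 1.01 in the second line.

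The nuclear genes of the same pathway were taken from 10 lists with 234 genes tested. In SK-N-SH, 148 were higher and 43 lower in knockdown, where 79.8% of all genes tested were called (40.7% higher and 39.0% lower). In the second line 66 were higher and 116 lower, where 80.0% of all genes tested were called (39.9% higher and 40.2% lower). The totals called, 191 and 182 of 234, were near the share over all genes, and all list counts below are to be read against these shares. Rescaled to the summed mitochondrial FPKM, these counts were 119 and 55 in SK-N-SH and 49 and 128 in the second line. All genes tested then split into 5281 higher and 6799 lower in SK-N-SH, and 5502 and 6562 in the second line. Of 36 nuclear complex I subunits, 24 were higher and 4 lower in SK-N-SH knockdown (median log2 fold 0.44, beside 0.02 over all genes), and 8 were higher and 19 lower in second line knockdown (median -0.22, beside -0.02). Of 12 nuclear complex IV subunits, 10 were higher and 1 lower in SK-N-SH knockdown (median 0.63), and 1 was higher and 8 lower in second line knockdown (median -0.38). Complex II, which has no subunit encoded in the mitochondria, had 2 higher and 1 lower of 4 in both lines (medians 0.18 and 0.09), but not the same genes. SDHC was lower and SDHA higher in SK-N-SH knockdown, and the reverse held in second line knockdown. Of the mitochondrial mRNAs for complex IV, MT-CO3 alone was called, higher in SK-N-SH knockdown and lower in second line knockdown.

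Of 29 genes for processing and stability of mitochondrial RNA, 22 were higher and 5 lower in SK-N-SH knockdown, and 6 were higher and 18 lower in second line knockdown, where 40.7% and 39.9% of all genes tested were higher and 39.0% and 40.2% lower in SK-N-SH and the second line. LRPPRC, which binds mitochondrial mRNAs and keeps them stable, averaged 53.7 ± 1.04 FPKM in SK-N-SH knockdown and 13.8 ± 0.233 FPKM in SK-N-SH control (SD, n = 3 each, log2 fold 1.88, limma adjusted p = 4.23e-12). In the second line it averaged 15.7 ± 0.755 FPKM in knockdown and 50.9 ± 1.12 FPKM in control (log2 fold -1.63, limma adjusted p = 1.3e-11). FASTKD1, a mitochondrial RNA-binding protein, averaged 7.82 and 3.22 FPKM in SK-N-SH knockdown and control, and 2.08 and 7.15 FPKM in second line knockdown and control. Among 20 genes for maintenance and transcription of mitochondrial DNA, 12 were higher and 7 lower in SK-N-SH knockdown, and 8 were higher and 11 lower in second line knockdown. RRM2B, a ribonucleotide reductase subunit that supplies nucleotides for mitochondrial DNA, had the largest fold of this list, at 2.32 and 17.5 FPKM in SK-N-SH knockdown and control (log2 fold -2.48), and 19.8 and 2.65 FPKM in second line knockdown and control (log2 fold 2.51). MGME1, an exonuclease of mitochondrial DNA replication, ran the other way and averaged 28.5 and 8.55 FPKM in SK-N-SH knockdown and control, and 8.93 and 27.9 FPKM in second line knockdown and control.

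Of 78 mitochondrial ribosomal proteins, the partners of MT-RNR1 and MT-RNR2, 43 were higher and 16 lower in SK-N-SH knockdown (median log2 fold 0.31), and 27 were higher and 30 lower in second line knockdown (median -0.08). Of 17 mitochondrial aminoacyl-tRNA synthetases, 9 were higher and 4 lower in SK-N-SH knockdown, and 6 were higher and 7 lower in second line knockdown, so that 13 of 17 were called in each line, beside 79.8% and 80.0% of all genes tested. NARS2, which charges the asparagine tRNA MT-TN, averaged 21.5 ± 0.637 FPKM in SK-N-SH knockdown and 4.77 ± 0.308 FPKM in SK-N-SH control, and 5.75 ± 0.385 FPKM in second line knockdown and 22.1 ± 1.43 FPKM in second line control. IARS2, which charges the isoleucine tRNA MT-TI, ran the other way, at 32.0 ± 0.266 FPKM in SK-N-SH knockdown and 93.9 ± 1.58 FPKM in SK-N-SH control, and at 93.4 ± 4.45 and 31.1 ± 2.59 FPKM in second line knockdown and control. MT-TI itself averaged 10.9 ± 7.42 FPKM in SK-N-SH knockdown and 18.3 ± 7.06 FPKM in SK-N-SH control, which overlapped. All nuclear genes named here passed the test in both lines. Between SK-N-SH knockdown and control of the second line, 2 of the 234 nuclear genes and 0 of the 37 mitochondrial genes were called, where 5.39% of all genes tested were called.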

How the data were processed

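RNA sequencing of 12 libraries gave 1 deposited table of FPKM per gene. The tools named are HISAT2 2.0.5 and, for counting, featureCounts 1.5.0-p3, per the submitters' processing notes. Those notes name mm10, but the table lists human genes, and the coordinates of all 37 mitochondrial genes equal GENCODE 29 on GRCh38. The deposited FPKM values times gene length were whole multiples of one step per library (100% within 0.05 reads), which gives whole reads; as the values show, the authors' scaling followed median-of-ratios size factors. All columns matched a sample title.

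Values were analysed as log2(FPKM + 1), a scale that understates folds of low genes, for genes whose FPKM averaged 0.5 or more, with limma 3.58.1 in R 4.3.3: 4 group means over 12 libraries, empirical Bayes with an intensity trend, two-sided p adjusted by Benjamini-Hochberg within each comparison at 0.05. Steps were tested on simulated data. Ratios were compared by exact permutation tests. Named are all mitochondrial mRNAs and rRNAs, tRNAs past the threshold or with most reads, up to 2 genes of a nuclear list by fold, TSPYL5, MYCN and the copies with most reads. Gene sets, lists and tests were chosen with earlier results of these data known; adding the nuclear copies was chosen after seeing the data. Alternatives were the pseudocount, filter, scaling, voom on recovered reads, gene classes, libraries fitted, replicate block and each library left out. Replicate numbers of the titles did not pair libraries: deviations of same-numbered libraries correlated at -0.0751 to 0.102.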

Additional observations from a re-analysis of the deposited data

Results flagged for a closer look

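The effect of the knockdown label differed between the second line and SK-N-SH in 30 of the 37 mitochondrial genes, by limma's test of the difference itself, where 84.9% of all genes tested differed. Values are the log2 effect in the second line minus that in SK-N-SH. They also set the groups rich in mesenchymal markers against those rich in noradrenergic markers. Among rRNAs and mRNAs the difference was -2.11 for MT-RNR2, -1.33 for MT-CO3, -1.16 for MT-ND6, -0.42 for MT-ND5, -0.38 for MT-ND1, 0.47 for MT-ND4, 0.81 for MT-RNR1, 1.01 for MT-ATP6, 1.38 for MT-ATP8, 1.62 for MT-ND2, 1.92 for MT-ND3 and 2.46 for MT-CYB. MT-ND1 and MT-ND4 were near the threshold (limma adjusted p = 0.035 and 0.0208) and lost the call under several alternatives, MT-ND1 on leaving out any of 7 single libraries (0.0504 to 0.0866) and MT-ND4 without SK-N-SH control replicate 2, SK-N-SH knockdown replicate 2 or replicate 3 of either second line group (0.0506 to 0.0602). MT-TF and MT-TS1 (0.0274 and 0.0373) lost it likewise.

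Among tRNAs with a negative difference it was -6.42 for MT-TT, -3.37 for MT-TL1, -3.25 for MT-TW, -2.72 for MT-TD, -2.66 for MT-TC, -2.61 for MT-TY, -2.37 for MT-TN, -1.95 for MT-TS1, -1.93 for MT-TV and -1.56 for MT-TE. Among tRNAs with a positive difference it was 1.22 for MT-TR, 1.53 for MT-TF, 1.93 for MT-TI, 2.0 for MT-TS2, 2.01 for MT-TH, 2.18 for MT-TL2, 2.38 for MT-TG and 2.65 for MT-TA. The value of MT-TA rested on 1 to 19 reads per library. The summed noradrenergic markers stood at 804 to 881 FPKM in SK-N-SH knockdown and 63.9 to 76.6 FPKM in SK-N-SH control. In second line knockdown and control they stood at 57.3 to 72.4 and 959 to 982 FPKM. Not every gene with a negative difference was lower in second line knockdown. MT-TV had log2 folds of 2.04 in SK-N-SH and 0.10 in the second line. The summed mesenchymal markers stood at 19.4 to 22.6 and 1329 to 1659 FPKM in SK-N-SH knockdown and control. In second line knockdown and control they stood at 1166 to 1574 and 17.9 to 21.5 FPKM. Nor was every gene with a positive difference lower in SK-N-SH knockdown. MT-RNR1 had log2 folds of 0.17 in SK-N-SH and 0.98 in the second line. The part of either marker set in the differences was not tested.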

How the results depend on the processing

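Over 12 alternatives and each library left out, 0 of 100 mitochondrial calls reversed, and 71 kept their call in all. Rescaled to summed mitochondrial FPKM, genes lower numbered 15 in SK-N-SH (main 9) and 4 in second line knockdown over SK-N-SH control (main 0). Of all 15856 genes tested, 6799 and 4455 were lower in these comparisons under this scaling. MT-CO1, MT-CO2 and MT-RNR1 stood at -0.038, -0.15 and -0.015 in SK-N-SH. Under this scaling MT-CO2 was called lower in SK-N-SH (limma adjusted p = 0.0306), and the median of all genes moved by -0.14. With no minimum level, 6 genes were lower in the second line (main 10) and 13 higher in second line knockdown over SK-N-SH control (main 20). More genes were tested in this setting, 35897 in all, of which 8432 were lower and 4207 higher in these comparisons. MT-ATP6, MT-TI, MT-TK and MT-TP, higher in the second line in the main fit, also lost their call in this setting (limma adjusted p = 0.0554 to 0.261). In the second line, MT-CO1 and MT-ND1, uncalled in the main fit, were -0.10 and -0.11 by library totals, -0.11 and -0.11 by nuclear totals, -0.057 and -0.063 by mitochondrial FPKM and -0.11 and -0.11 by voom. MT-ND5, also uncalled in the main fit, was -0.16, -0.16, -0.11 and -0.16 in these settings, and voom called it lower (adjusted p = 0.0328). The median of all genes moved by -0.11, -0.12, -0.08 and -0.17. Leaving out libraries, uncalled folds ran from -0.061 to 0.096 for MT-CO2 and -0.21 to 0.0003 for MT-ND4L in SK-N-SH, and from -0.049 to 0.059 for MT-ND5 in the second line. Leaving out mitochondrial rRNA turned the second line difference in mitochondrial share to 0.208 points (main -0.248). The share difference of SK-N-SH knockdown over second line control was -0.128 to 0.446 points, negative without SK-N-SH knockdown replicate 3. With replicate number as a block, SK-N-SH had 18 higher and 10 lower genes and the second line 15 and 10. Of all genes tested, 79.3% and 79.6% were called in this setting, and replicate numbers do not pair the libraries. Low tRNA reads limit MT-TF, MT-TQ, MT-TW, MT-TK, MT-TS1 and MT-TA.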
